A study of Mus musculus with 78 samples.

Results

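The genes that write, maintain and remove DNA methylation were followed after degradation of TRIM28 in mouse embryonic stem cells (mESCs). They are the 8 genes Dnmt1, Uhrf1, Dnmt3a, Dnmt3b, Dnmt3l, Tet1, Tet2 and Tet3, chosen by name and read by gene identifier from 54446 genes in all. The main cells were TRIM28-FKBP mESCs, a line derived from V6.5 by a knock-in of the FKBP degron at Trim28 and grown from single colonies, which dTAG-13 depletes of TRIM28 protein. RNA-seq of this line covered DMSO and 500 nM dTAG-13 for 2, 6, 24 and 96 h. TT-SLAM-seq, which reads newly made RNA labelled with 4-thiouridine, covered DMSO, 2, 6 and 24 h. The shERV line carries the same tag and Dox-inducible hairpins against the ERV families IAP, MMERVK10C, MMERVK9C and MMETn, and was sampled at 24 h in DMSO, in dTAG-13 and in Dox + dTAG-13. Untagged parental V6.5 mESCs and neural progenitor cells (NPCs) in DMSO were sequenced too. Each of these 14 groups had 3 libraries, and the labels give replicate numbers without saying whether they mark separate cultures, so that p-values measure the spread between these libraries. The protocols in the labels give Dox to all 3 shERV groups, whereas the sample titles give it to 1, and the titles were followed here. The Dox dose was 2 µg/ml, and in the paper the hairpins were induced 24 h ahead of the 24 h of TRIM28 degradation.

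Methyl groups on cytosines of CG dinucleotides are set by the de novo methyltransferases DNMT3A and DNMT3B. DNMT3L has no catalytic activity of its own and stimulates both. After replication, UHRF1 recognises CG sites methylated on a single strand and recruits DNMT1, the maintenance methyltransferase, to copy the mark. TET1, TET2 and TET3 oxidise 5-methylcytosine and start its removal. In mESCs Tet1 and Tet2 are the usual TET genes, and Dnmt3b and Dnmt3l are high in pluripotent cells, while TRIM28 and its partners bring H3K9me3 and DNA methylation to ERVs. No methylation was measured in the values used here, so every result below is about RNA or chromatin at these genes.

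The genes lie on separate chromosomes except for Tet1 and Dnmt3l, and the values cover whole protein-coding genes of GENCODE on GRCm38. The maintenance genes are Dnmt1 (ENSMUSG00000004099) at chr9:20907209-20959888 on the minus strand and Uhrf1 (ENSMUSG00000001228) at chr17:56303321-56323486 on the plus strand. The de novo genes are Dnmt3a (ENSMUSG00000020661) at chr12:3806007-3914443 on the plus strand, Dnmt3b (ENSMUSG00000027478) at chr2:153649450-153687730 on the plus strand and Dnmt3l (ENSMUSG00000000730) at chr10:78041947-78063622 on the plus strand. The TET genes are Tet1 (ENSMUSG00000047146) at chr10:62804570-62908996 on the minus strand, Tet2 (ENSMUSG00000040943) at chr3:133463679-133545139 on the minus strand and Tet3 (ENSMUSG00000034832) at chr6:83362373-83459084 on the minus strand.

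The promoters of the de novo genes and of the TET genes vary in CG content within each group. Those of Dnmt3l, Dnmt3b and the TET genes are printed as examples, and counts for Dnmt3a are given below. RefSeq gave at least 1 start for all 8 genes and 15 starts in all. Each stretch holds 250 bases before and 50 after the start, printed 5′ to 3′ on the strand of the gene, with CG dinucleotides in capitals (GRCm38.p6). The sequences are those of Dnmt3l at chr10:78042037-78042336 (plus strand, the first of 3 starts), Dnmt3b at chr2:153649199-153649498 (plus strand), Tet1 at chr10:62887275-62887574 (minus strand), Tet2 at chr3:133544341-133544640 (minus strand) and Tet3 at chr6:83441629-83441928 (minus strand).
Dnmt3l: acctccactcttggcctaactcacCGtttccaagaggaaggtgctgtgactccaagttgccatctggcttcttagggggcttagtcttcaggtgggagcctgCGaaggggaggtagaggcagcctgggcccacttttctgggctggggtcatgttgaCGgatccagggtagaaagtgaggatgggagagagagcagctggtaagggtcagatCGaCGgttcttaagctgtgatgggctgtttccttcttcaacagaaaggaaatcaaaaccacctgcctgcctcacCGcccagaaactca
Dnmt3b: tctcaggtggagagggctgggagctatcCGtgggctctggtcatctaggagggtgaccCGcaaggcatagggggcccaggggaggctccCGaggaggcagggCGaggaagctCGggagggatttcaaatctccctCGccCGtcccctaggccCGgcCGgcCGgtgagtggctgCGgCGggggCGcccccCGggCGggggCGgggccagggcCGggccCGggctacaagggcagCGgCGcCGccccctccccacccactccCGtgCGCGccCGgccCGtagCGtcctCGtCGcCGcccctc
Tet1: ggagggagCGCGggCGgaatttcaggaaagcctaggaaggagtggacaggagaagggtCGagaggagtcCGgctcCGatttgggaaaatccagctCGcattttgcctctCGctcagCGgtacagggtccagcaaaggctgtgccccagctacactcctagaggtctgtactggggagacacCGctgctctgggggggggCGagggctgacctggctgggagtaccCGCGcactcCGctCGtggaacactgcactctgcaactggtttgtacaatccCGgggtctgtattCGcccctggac
Tet2: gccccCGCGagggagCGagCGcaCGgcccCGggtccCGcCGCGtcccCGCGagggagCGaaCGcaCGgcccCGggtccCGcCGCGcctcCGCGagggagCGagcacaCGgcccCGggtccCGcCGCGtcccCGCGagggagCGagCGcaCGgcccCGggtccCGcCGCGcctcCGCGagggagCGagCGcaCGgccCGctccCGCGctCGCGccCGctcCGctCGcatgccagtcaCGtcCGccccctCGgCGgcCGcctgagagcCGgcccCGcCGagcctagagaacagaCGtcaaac
Tet3: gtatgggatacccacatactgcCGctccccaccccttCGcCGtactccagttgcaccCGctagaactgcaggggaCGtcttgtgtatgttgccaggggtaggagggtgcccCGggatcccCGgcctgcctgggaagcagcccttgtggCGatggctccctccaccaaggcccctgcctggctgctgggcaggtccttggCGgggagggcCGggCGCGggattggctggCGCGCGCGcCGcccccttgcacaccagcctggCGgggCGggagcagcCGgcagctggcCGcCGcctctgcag

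The Dnmt3l promoter held 6 CG, and the other 2 Dnmt3l starts held 4 and 3, against a median of 7 over the 32851 promoters in the RefSeq table. The Dnmt3b promoter held 30 CG, and the Dnmt3a starts, not printed, held 46, 47 and 18. Of the TET promoters, that of Tet1 held 17, that of Tet3 22 and that of Tet2 57, a number reached by 0.152% of all promoters. Dnmt1 and Uhrf1 each had a start with 33 CG beside others with fewer. GGGCGG, searched on both strands, occurred 4 times in the Dnmt3b promoter and 6, 7 and 2 times at the Dnmt3a starts. Of all promoters 35.7% hold it at least 1 time. These counts describe letters and say nothing of methylation there.

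In mESCs treated with DMSO the de novo genes Dnmt3l and Dnmt3b were the highest of the 8. Levels are given in TPM, transcript abundance scaled by length and library total, from the 3 libraries of a group. Dnmt3l had a mean of 483 TPM and Dnmt3b 445 TPM, followed by Uhrf1 at 248 TPM and Dnmt1 at 154 TPM. Dnmt3a had 121 TPM and Tet1 115 TPM, and the libraries of Dnmt1 and Dnmt3a, and those of Dnmt3a and Tet1, overlapped in level. Tet2 had 28.7 TPM and Tet3 7.97 TPM, so that Tet3 made up 5.27% ± 0.272 (SD, n = 3) of the summed TPM of the TET genes. By 96 h of dTAG-13 the order was Uhrf1, Dnmt1, Dnmt3b, Dnmt3l, Dnmt3a, Tet3, Tet1 and Tet2, with no overlap between neighbours.

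**Figure D1:**
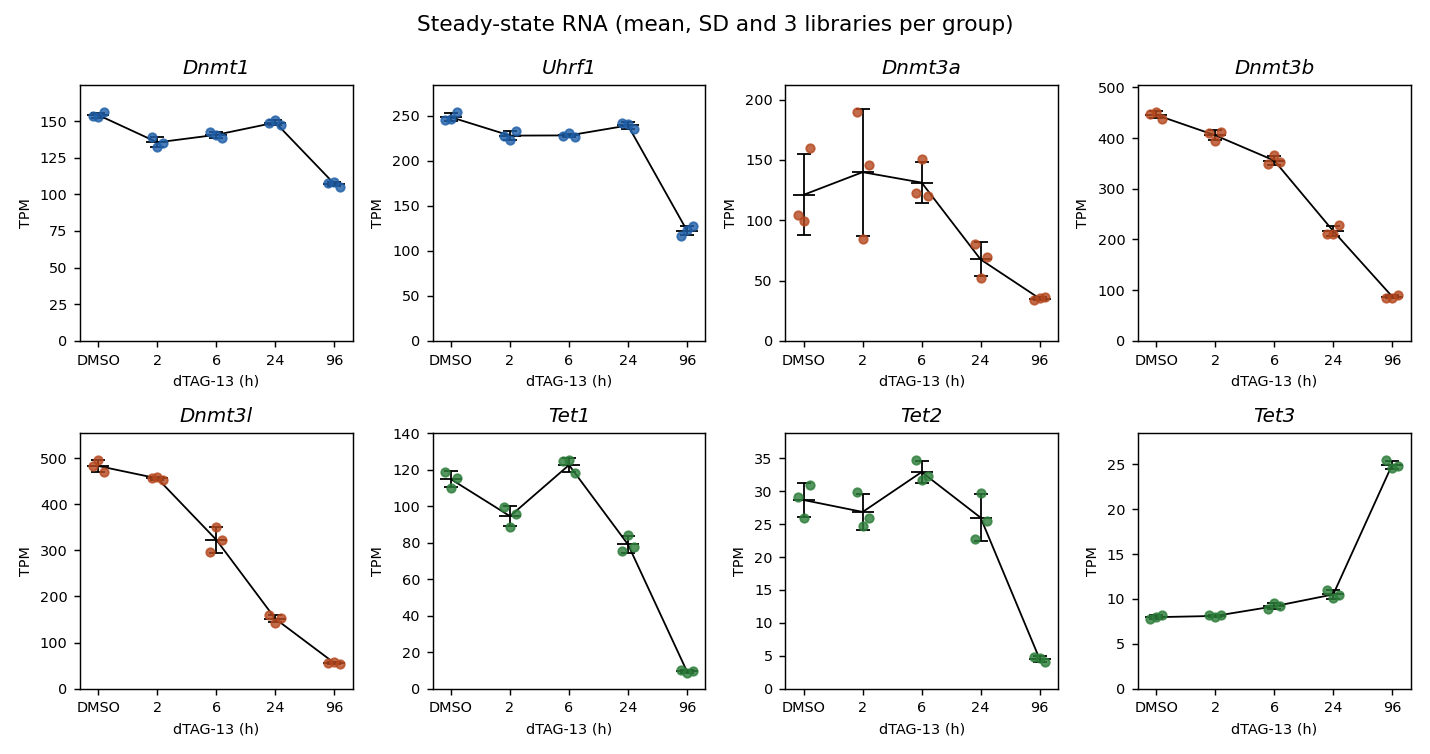
TPM of each gene (y axis, linear, from 0) in DMSO and after dTAG-13 (x axis, hours, spaced evenly), with a point per library and the mean ± SD of 3 libraries. Dnmt3l and Dnmt3b fell from 6 h on, Dnmt1, Uhrf1, Tet1 and Tet2 had most of their fall between 24 h and 96 h, and Tet3 rose to 25.0 TPM.

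The time course asked which of the 8 genes respond to loss of TRIM28 and when. At 24 h the 3 de novo genes had the largest falls among the 8, Tet1 and Tet2 had most of their fall between 24 h and 96 h, and Tet3 was higher at 6, 24 and 96 h. At 2 h 4 of 8 genes were lower and 0 higher by limma (adjusted p below 0.05 after Benjamini-Hochberg adjustment over 17922 genes), against 7.02% and 8.25% of all genes. No gene of the 8 was higher at an unadjusted p below 0.05 either (0 of 8), a limit at which all genes were not counted. The 4 lower genes at 2 h became 2 to 3 in fits that each left out 1 library, beside 685 to 1021 lower among all genes. At 6 h 4 were lower and 1 higher, against 15.5% and 18.4%. At 24 h 4 were lower and 1 higher, against 25.0% and 42.9%. At 96 h 7 were lower and 1 higher, against 37.4% and 42.9%. The median change of the 8 genes at 96 h was -2.04 on the log2 scale, beside 0.05 over all genes tested. All 8 genes passed the filter on low values in every main fit. Dnmt3a was filtered out of a further TT-SLAM-seq fit that held only the 2 h and DMSO libraries. All tests are two-sided, and fold changes are on the log2(TPM + 0.5) scale.

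Dnmt3l, the cofactor, had the largest fall of the 8 genes at 6 h and at 24 h. Its level was 483, 496 and 470 TPM in DMSO and 456, 459 and 454 TPM at 2 h. It was 296, 350 and 322 TPM at 6 h, 159, 143 and 152 TPM at 24 h and 55.9, 57.1 and 53.6 TPM at 96 h. Every dTAG-13 library lay below every DMSO library, and each time point lay below the one before it, though the 2 h change missed the test. The log2 change was -0.08 at 2 h (limma adjusted p = 0.348), -0.58 ± 0.0539 (SE) at 6 h (adjusted p = 8.04e-06), -1.67 ± 0.0539 at 24 h (adjusted p = 2.37e-11) and -3.11 ± 0.0539 at 96 h (adjusted p = 2.93e-15). Means were thus 3.19-fold lower at 24 h and 8.70-fold lower at 96 h. The gene overlaps Aire, on the opposite strand, by 1664 bp. Aire had 60.8, 51.8 and 0.425 TPM in DMSO, at 24 h and at 96 h, and the part of reads shared between the genes was not tested.

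Dnmt3b, a catalytic de novo enzyme, followed a similar course. It was at 448, 451 and 438 TPM in DMSO, 349, 366 and 352 TPM at 6 h, 211, 211 and 228 TPM at 24 h and 85.4, 85.5 and 91.1 TPM at 96 h. No 6, 24 or 96 h library reached the DMSO range. The log2 change was -0.32 ± 0.0389 at 6 h (limma adjusted p = 6.2e-05), -1.04 ± 0.0389 at 24 h (adjusted p = 9.6e-11) and -2.34 ± 0.0389 at 96 h (adjusted p = 2.17e-15). Dnmt3c, a duplicate of Dnmt3b that could share reads with it, had 14.4, 7.08 and 2.47 TPM in DMSO, at 24 h and at 96 h. At 2 h Dnmt3b was lower by a log2 change of -0.14 (limma adjusted p = 0.0302). That call was lost in 5 of 6 fits that each left out 1 library, with adjusted p from 0.0528 to 0.107. Only the fit without DMSO replicate 3 kept it. Without the filter on low values it was lost too (limma adjusted p = 0.0552).

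Dnmt3a, the other catalytic enzyme, had the widest spread. Its libraries were at 104, 99.1 and 160 TPM in DMSO, 189, 84.6 and 146 TPM at 2 h, 80.6, 52.5 and 69.4 TPM at 24 h and 34.0, 35.3 and 36.1 TPM at 96 h. The DMSO and 2 h libraries overlapped widely, whereas those at 24 h and 96 h lay below DMSO. The log2 change was -0.83 ± 0.248 at 24 h (limma adjusted p = 0.00896) and -1.74 ± 0.248 at 96 h (adjusted p = 1.45e-05). The summed level of the DNMT3 genes went from 1050 ± 16.1 TPM in DMSO to 436 ± 24.9 TPM at 24 h and 178 ± 2.82 TPM at 96 h (SD, n = 3).

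The maintenance genes moved little until 24 h. Dnmt1 was at 153, 153 and 156 TPM in DMSO, 148, 151 and 148 TPM at 24 h and 108, 108 and 105 TPM at 96 h. Uhrf1 was at 245, 246 and 254 TPM in DMSO, 242, 241 and 235 TPM at 24 h and 117, 123 and 127 TPM at 96 h. The 24 h libraries of both genes lay just below those in DMSO, and the 96 h libraries well below. At 24 h the log2 changes were -0.05 for Dnmt1, with a 95% interval from -0.11 to 0.01 (limma adjusted p = 0.146), and -0.05 for Uhrf1, with an interval from -0.13 to 0.02 (adjusted p = 0.170). At 96 h Dnmt1 changed by -0.52 ± 0.0281 (adjusted p = 2.77e-10) and Uhrf1 by -1.02 ± 0.0334 (adjusted p = 1.27e-12). Small earlier falls also passed the test, with log2 changes of -0.19 at 2 h and -0.13 at 6 h for Dnmt1 and -0.12 at both times for Uhrf1. The 2 h call of Uhrf1 was lost in 5 of 6 fits that each left out 1 library, all but the fit without 2 h replicate 3, with adjusted p from 0.0513 to 0.0836.

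The TET genes took opposite directions. Tet1 was at 119, 110 and 116 TPM in DMSO, 99.3, 88.7 and 95.4 TPM at 2 h, 124, 125 and 118 TPM at 6 h, 75.4, 84.0 and 77.6 TPM at 24 h and 10.2, 8.72 and 9.43 TPM at 96 h. The 2, 24 and 96 h libraries lay below DMSO, while those at 6 h overlapped it. Its log2 change was -0.28 ± 0.0591 at 2 h (limma adjusted p = 0.00644), -0.54 ± 0.0591 at 24 h (adjusted p = 2.02e-06) and -3.54 ± 0.0591 at 96 h (adjusted p = 2.23e-15). The last is a mean 12.2-fold lower, the largest fall of the 8 genes.

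Tet2 was at 29.1, 25.9 and 31.0 TPM in DMSO and 22.7, 29.8 and 25.4 TPM at 24 h, with overlapping libraries. At 96 h it was at 4.78, 4.70 and 4.05 TPM, far below DMSO. Tet2 changed by -0.14 at 24 h (limma adjusted p = 0.224) and -2.54 ± 0.101 at 96 h (adjusted p = 9.65e-12). The 24 h value became -0.25 without 24 h replicate 2 (limma adjusted p = 0.0442).

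Tet3 rose. It was at 7.75, 7.93 and 8.22 TPM in DMSO, 8.82, 9.54 and 9.18 TPM at 6 h, 11.0, 10.1 and 10.5 TPM at 24 h and 25.5, 24.6 and 24.8 TPM at 96 h. Every library at 6, 24 and 96 h lay above every DMSO library. The log2 change was 0.19 ± 0.0507 at 6 h (limma adjusted p = 0.0102), 0.38 ± 0.0507 at 24 h (adjusted p = 1.4e-05) and 1.59 ± 0.0507 at 96 h (adjusted p = 9.29e-13). The 6 h call was lost with only the groups compared (adjusted p = 0.0551), and the 6 h and 24 h calls were lost under centring on the median gene (0.10 and 0.09). The share of Tet3 in the summed TET level was 9.13% ± 0.970 at 24 h and 64.2% ± 1.01 at 96 h (SD, n = 3), while the sum went from 151 ± 6.57 to 115 ± 7.59 and 38.9 ± 1.30 TPM.

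Between 24 h and 96 h 7 genes were lower and 1 higher, against 42.0% and 37.4% of all genes. Tet1 changed by -3.00 and Tet2 by -2.40 on the log2 scale, Dnmt3l by -1.44, Dnmt3b by -1.30, Uhrf1 by -0.96, Dnmt3a by -0.91, Dnmt1 by -0.47 and Tet3 by 1.21, all past the test. Of the log2 change reached at 96 h, 53.7% was present at 24 h for Dnmt3l, 47.5% for Dnmt3a and 44.4% for Dnmt3b. It was 23.7% for Tet3, 15.2% for Tet1, 9.17% for Dnmt1, 5.66% for Tet2 and 5.29% for Uhrf1. The order among genes was not tested.

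Centring each library on its median gene moved the log2 changes down by 0.29 at 24 h and by 0.28 at 96 h, and the split of all genes from 7681 higher and 4486 lower to 4643 and 7900 at 24 h. It was 6037 higher and 8714 lower, in place of 7681 and 6704, at 96 h, and 2023 and 4710, in place of 3296 and 2783, at 6 h. Under centring Dnmt1 (-0.34), Uhrf1 (-0.34) and Tet2 (-0.43) were also called lower at 24 h and the lost calls of Tet3 had adjusted p of 0.119 at 6 h and 0.122 at 24 h, with unchanged direction. At 96 h all 8 calls kept their direction.

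Genes with the course nearest to that of Tet3 were found by the root mean square difference of the 4 log2 changes over the time course. They were Nucb1 (0.0386), Zfp125 (0.0393), Mbd2 (0.0418), Eci3 (0.0533) and Fuca1 (0.0539). Eci3 was nearly absent in DMSO, with a mean of 0.0419 TPM. Mbd2 encodes a reader of methylated DNA, and had log2 changes of 0.32 at 24 h and 1.63 at 96 h. For Tet1 the nearest were Utf1 (0.153), Tdgf1 (0.166), Adam23 (0.170), Gm16211 (0.184) and Liph (0.185), of which Utf1 is a gene of pluripotent cells. These are descriptions over 4 contrasts that share the DMSO libraries.

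Marker genes of other cell types and of the cell cycle changed in the same libraries. The summed level of 10 ESC markers ranged from 4103 to 4471 TPM in DMSO. It ranged from 2720 to 3116 TPM at 24 h and from 388 to 441 TPM at 96 h. Lower were 8 of 10 at 24 h and 10 of 10 at 96 h, beside 25.0% and 37.4% of all genes. Nanog went the other way at 24 h (log2 change 0.54, limma adjusted p = 3.56e-06), and Tfcp2l1 was not called. Of all genes 42.9% were higher at either time. Of 10 S phase genes, 10 were lower at 24 h and 8 at 96 h, and their sum went from between 2171 and 2259 TPM to between 1173 and 1222 TPM at 96 h. Of 9 feeder fibroblast markers tested 9 were higher at 96 h, with sums from 22.9 to 23.4 TPM in DMSO and from 288 to 313 TPM at 96 h. According to the study's methods the cells had been depleted of feeder fibroblasts before seeding on gelatin. Endoderm markers rose for 6 of 7, with a sum from 16.8 to 21.2 TPM in DMSO and from 80.1 to 85.0 TPM at 96 h. The ESC markers were all above 1 TPM in DMSO. Of the 10 feeder markers 5 were below 1 TPM there and 1 at 96 h. The filter could thus pass feeder markers through the 96 h libraries where they were high, which favoured their being higher. The part of these marker lists in the changes of the 8 genes was not tested. In bulk RNA fewer cells of a type and less RNA per cell cannot be told apart. Trim28 itself, whose protein rather than RNA is targeted, was at 624 TPM in DMSO, 372 TPM at 24 h and 192 TPM at 96 h. Relative depth, from mean read coverage, ran from 0.341 in 24 h replicate 1 to 1.64 of the median RNA-seq library.

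Newly made RNA asked whether the changes were visible at transcription. Tet1 and Tet2 were higher by 6 h, Tet3 was higher and Dnmt3l lower at 24 h, and no de novo gene passed the test as lower at 2 or 6 h. Values are FPKM over the whole gene span, introns included, and the libraries were scaled to between 6478240 and 24240900 reads. At 2 h 1 gene was higher and 0 lower by limma, against 1.58% and 1.97% of 13357 genes. At an unadjusted p below 0.05, 4 were higher and 1 lower, a limit at which the share of all genes was not computed. A fit with voom on the recovered reads called 4 higher and 1 lower, beside 925 and 469 among all genes. At 6 h 2 were higher and 0 lower, against 7.82% and 1.27%. There 4 were higher and 0 lower at an unadjusted p below 0.05, and voom called 4 higher and 0 lower. Those 6 h counts have no share of all genes beside them, so they cannot show whether the 8 genes stand out. At 24 h 2 were higher and 1 lower, against 32.3% and 5.59%. All changes stayed below 2-fold.

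**Figure D2:**
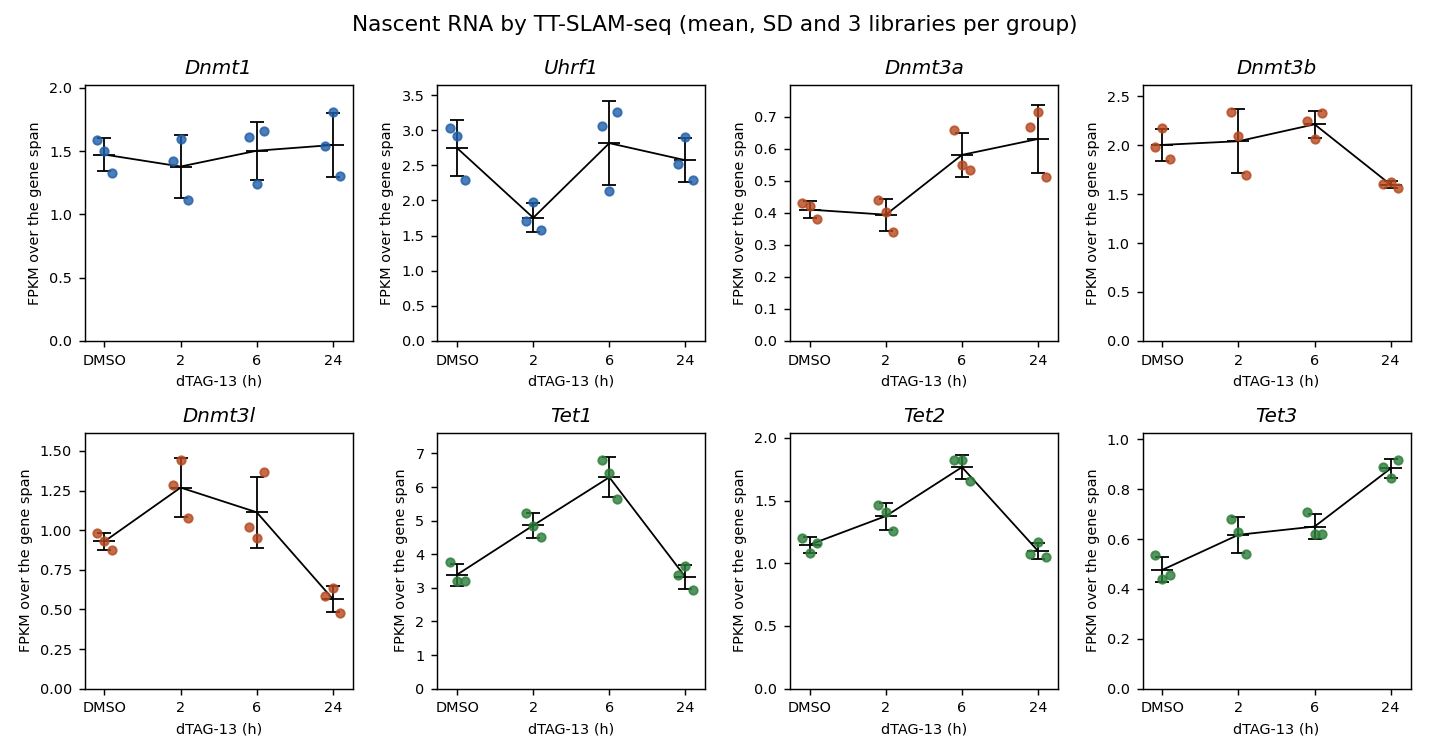
TT-SLAM-seq FPKM over the gene span of each gene (y axis, linear, from 0) in DMSO and after 2, 6 and 24 h of dTAG-13 (x axis), with a point per library and the mean ± SD of 3 libraries. Tet1 and Tet2 peaked at 6 h, Tet3 was highest at 24 h and Dnmt3l lowest at 24 h.

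Tet1 had 3.77, 3.20 and 3.21 FPKM in DMSO, 5.24, 4.83 and 4.51 FPKM at 2 h, 6.80, 6.43 and 5.64 FPKM at 6 h and 3.38, 3.64 and 2.94 FPKM at 24 h. The 2 h and 6 h libraries lay above DMSO, and those at 24 h overlapped it. The change on the log2(FPKM + 0.5) scale was 0.46 ± 0.105 at 2 h (limma adjusted p = 0.0469), 0.80 ± 0.105 at 6 h (adjusted p = 0.00506) and -0.03 at 24 h (adjusted p = 0.860). The 2 h call was lost in 5 of 6 fits that each left out 1 library, all but the fit without 2 h replicate 3, with adjusted p from 0.0658 to 0.151. Between 1990 and 12257 reads lay behind these values.

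Tet2 had 1.20, 1.08 and 1.16 FPKM in DMSO, 1.46, 1.41 and 1.26 FPKM at 2 h and 1.82, 1.82 and 1.66 FPKM at 6 h. All 2 h and 6 h libraries lay above DMSO. Its log2 change was 0.19 at 2 h (limma adjusted p = 0.128) and 0.46 ± 0.0624 at 6 h (adjusted p = 0.00580), and it was -0.05 at 24 h, with 1.07, 1.17 and 1.05 FPKM.

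Tet3 had 0.534, 0.441 and 0.455 FPKM in DMSO and 0.890, 0.844 and 0.917 FPKM at 24 h, without overlap. Of the DMSO libraries only replicate 1 reached the filter limit of 0.5 FPKM. The gene was tested through its dTAG-13 libraries, so the filter favoured a rise. The log2 change was 0.50 ± 0.0667 at 24 h (limma adjusted p = 0.000389), on a mean 1.85-fold higher, and 0.24 at 6 h (adjusted p = 0.0553).

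Dnmt3l had 0.980, 0.934 and 0.874 FPKM in DMSO, 1.02, 0.949 and 1.37 FPKM at 6 h and 0.582, 0.638 and 0.477 FPKM at 24 h. The 24 h libraries lay below DMSO while those at 6 h overlapped it. The log2 change at 24 h was -0.43 ± 0.109 (limma adjusted p = 0.0120), and from 67 to 306 reads lay behind the 24 h values. In RNA-seq its level was already lower at 6 h, but the 2 assays differ in scale and were not tested against each other. Dnmt3b changed by -0.25 at 24 h (adjusted p = 0.0567), with 1.98, 2.17 and 1.86 FPKM in DMSO and 1.61, 1.63 and 1.56 FPKM at 24 h.

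Dnmt3a went the other way in newly made RNA. It had 0.430, 0.420 and 0.380 FPKM in DMSO and 0.668, 0.714 and 0.511 FPKM at 24 h, without overlap. The log2 change was 0.31 ± 0.0855 (limma adjusted p = 0.0172), whereas its RNA-seq level fell by 0.83 on the log2 scale. No DMSO or 2 h library reached the filter limit of 0.5 FPKM. The gene was tested only through its 6 h and 24 h libraries, so the filter favoured this call of a rise. That call was lost without 24 h replicate 1 (0.28, adjusted p = 0.0758) and without 24 h replicate 2 (0.26, adjusted p = 0.0923), and under centring (0.07, adjusted p = 0.610). Dnmt1, at 1.59, 1.50 and 1.33 FPKM in DMSO and 1.54, 1.81 and 1.30 FPKM at 24 h, and Uhrf1, at 3.03, 2.92 and 2.29 and 2.52, 2.91 and 2.29 FPKM, passed the test at no time. At 2 h Uhrf1 had 1.70, 1.98 and 1.58 FPKM, all below its DMSO libraries, and a log2 change of -0.52 (adjusted p = 0.0855).

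Centring moved the TT-SLAM-seq changes down by 0.24 at 24 h, where 1858 genes were then higher and 2249 lower in place of 4316 and 747. The 2 h split was 459 higher and 220 lower in place of 211 and 263, and that of 6 h was 730 and 341 in place of 1044 and 170. Under it Dnmt3b (-0.50) and Tet2 (-0.29) were called lower at 24 h, and Tet3 kept its call there. The voom fit, with 2429 genes higher and 2374 lower at 24 h, called 5 of the 8 genes lower (Dnmt3l, Dnmt3b, Uhrf1, Tet1 and Tet2).

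The shERV line asked how the genes responded when hairpins against ERV RNA were induced 24 h ahead of TRIM28 loss. In dTAG-13 Dnmt3b, Dnmt3l, Tet1 and Tet2 were lower and Tet3 higher than in DMSO, which is 4 and 1 of 8 genes, against 12.8% and 41.2% of 16166 genes. In Dox + dTAG-13 compared with dTAG-13, 5 were higher and 1 lower, against 17.5% and 29.3%. The 2 comparisons share the dTAG-13 libraries, so that their values are given side by side and not compared. These libraries were made from total RNA, unlike the other RNA-seq libraries, which used captured mRNA.

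**Figure D3:**
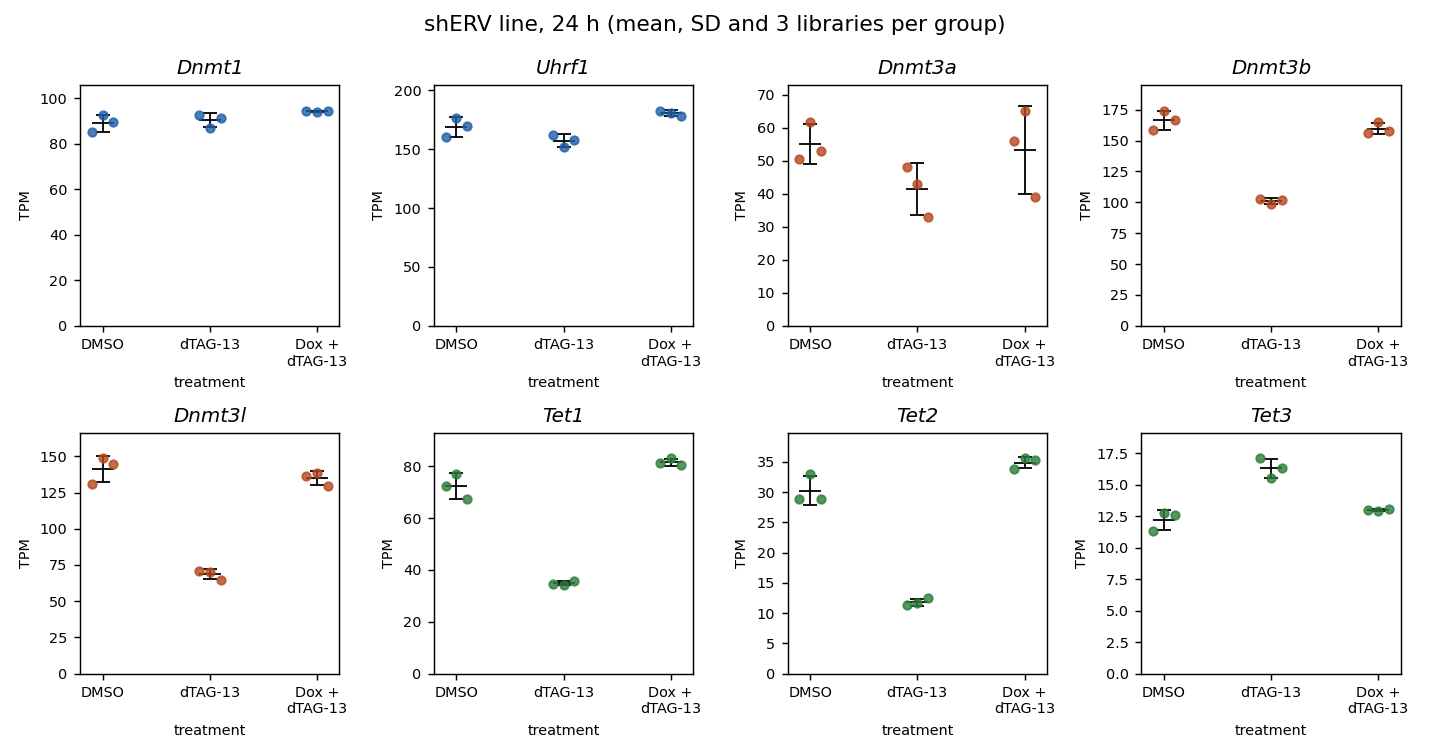
TPM of each gene (y axis, linear, from 0) in the shERV line at 24 h in DMSO, dTAG-13 and Dox + dTAG-13 (x axis), with a point per library and the mean ± SD of 3 libraries. Tet1 and Tet2 were lowest in dTAG-13 and in Dox + dTAG-13 lay above the DMSO libraries, while Dnmt3b and Dnmt3l in Dox + dTAG-13 overlapped them.

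Tet2 had 28.9, 33.0 and 28.8 TPM in DMSO, 11.4, 11.6 and 12.4 TPM in dTAG-13 and 33.8, 35.5 and 35.3 TPM in Dox + dTAG-13. The dTAG-13 libraries lay far below both other groups. The change was a log2 of -1.32 ± 0.0622 in dTAG-13 against DMSO (limma adjusted p = 3.1e-08), and 1.52 ± 0.0622 in Dox + dTAG-13 against dTAG-13 (adjusted p = 1.14e-08). Tet1 had 72.4, 77.2 and 67.2 TPM, then 34.8, 34.3 and 35.9 TPM, then 81.2, 83.0 and 80.5 TPM in the same order. Its log2 changes were -1.03 ± 0.0513 (adjusted p = 3.96e-08) and 1.21 ± 0.0513 (adjusted p = 1.38e-08).

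Dnmt3l had 131, 149 and 145 TPM in DMSO, 71.0, 70.0 and 64.8 TPM in dTAG-13 and 137, 139 and 130 TPM in Dox + dTAG-13. Only the dTAG-13 libraries stood apart. The log2 changes were -1.04 ± 0.0553 (limma adjusted p = 6.5e-08) and 0.97 ± 0.0553 (adjusted p = 1.18e-07). Dnmt3b had 159, 174 and 167 TPM, then 103, 98.8 and 102 TPM, then 156, 165 and 158 TPM, with log2 changes of -0.72 and 0.65. Tet3 had 11.3, 12.8 and 12.6 TPM, then 17.1, 15.6 and 16.3 TPM, then between 12.9 and 13.1 TPM, with log2 changes of 0.40 (adjusted p = 0.000197) and -0.32 (adjusted p = 0.00140). Aire, which overlaps Dnmt3l, had means of 8.85, 1.90 and 6.88 TPM.

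Dnmt3a had 50.5, 61.9 and 53.1 TPM in DMSO, 48.2, 43.1 and 32.9 TPM in dTAG-13 and 56.0, 65.2 and 38.9 TPM in Dox + dTAG-13. Its changes of -0.42 (limma adjusted p = 0.0552) and 0.35 (adjusted p = 0.117) missed the threshold. The first was called with only the groups compared (adjusted p = 0.0105) and under centring (-0.59, adjusted p = 0.0232). With a replicate block in the limma fit both were called (adjusted p = 0.008 and 0.0246). Without dTAG-13 replicate 1 the first was -0.54 (adjusted p = 0.0268), and without Dox + dTAG-13 replicate 3 the second was 0.56 (adjusted p = 0.00768). Dnmt1 stayed between 85.0 and 94.5 TPM over all 9 libraries, with a log2 change of 0.02 in dTAG-13 that turned to -0.14 and was called under centring. Uhrf1 changed by -0.10 in dTAG-13 (adjusted p = 0.0741), which was called without DMSO replicate 1 (-0.14, adjusted p = 0.00764), and was higher by 0.20 in Dox + dTAG-13 than in dTAG-13 (adjusted p = 0.00353).

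Against DMSO, the Dox + dTAG-13 libraries of Dnmt3a, Dnmt3b and Dnmt3l overlapped in level, with mean ratios of 0.968, 0.958 and 0.954. Those of the other 5 genes lay above DMSO, by mean ratios of 1.13 for Tet1, 1.15 for Tet2 and only 1.06 for Dnmt1. How many of all genes lay apart in this way was not counted, so the number is not particular to these genes. These values carry no test. Tet3 made up 10.7% ± 0.829 of the TET sum in DMSO, 25.9% ± 1.02 in dTAG-13 and 10.0% ± 0.198 in Dox + dTAG-13. ESC markers summed to between 2112 and 2464 TPM, 1075 and 1101 TPM, and 2403 and 2435 TPM, and their part was not tested. Feeder markers summed to between 106 and 125 TPM over the 9 libraries. Centring moved the dTAG-13 changes down by 0.16, to 4189 genes higher and 4789 lower in place of 6667 and 2062, and the second comparison to 4570 and 4123 in place of 2825 and 4737.

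The 24 h effect in the shERV line was set against that of the time course by an interaction in limma over 17653 genes. Of the 8 genes 2 were higher and 2 lower, against 26.2% and 25.2% of all genes. Dnmt3l fell less in the shERV line, by 0.63 ± 0.0800 on the log2 scale (adjusted p = 4.45e-05), as did Dnmt3b, by 0.32 ± 0.0634 (adjusted p = 0.00105). Tet2 differed by -1.17 ± 0.134 (adjusted p = 2.21e-05) and Tet1 by -0.50 ± 0.0802 (adjusted p = 0.000263), a lower change in the shERV line for both, although Tet2 had not passed the test at 24 h of the time course. The difference for Tet3 was 0.03, with a 95% interval from -0.17 to 0.23 (adjusted p = 0.835). For Dnmt3a it was 0.40 (adjusted p = 0.235), for Dnmt1 0.07 and for Uhrf1 -0.05. Line, library kit and feeder contact differ together between the 2 experiments and cannot be told apart from a difference in effect. Centring moved the differences up by 0.12, to 6463 genes higher and 3614 lower in place of 4625 and 4446, and the 4 called genes kept their calls.

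**Figure D4:**
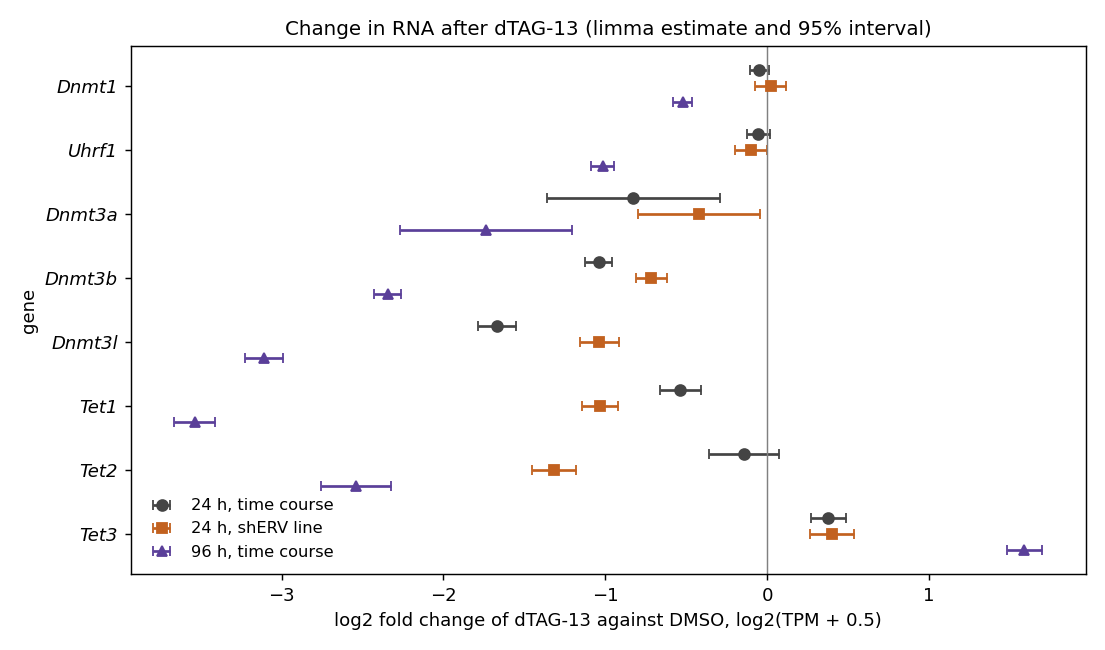
Log2 fold change of each gene in dTAG-13 against DMSO (x axis, log2(TPM + 0.5) scale) with its limma 95% interval, at 24 h and 96 h of the time course and at 24 h in the shERV line, 3 libraries per group. Tet2 changed by -0.14 at 24 h in the time course and by -1.32 in the shERV line, and Tet3 is the only gene of the 8 right of 0 in all 3 comparisons.

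Parental mESCs and NPCs show the range of these genes without dTAG-13, and both were compared with the same DMSO libraries of the tagged clone. Parental V6.5 cells, grown on feeders according to the labels, had more Tet2, Tet1 and Uhrf1 and less Tet3, Dnmt3b and Dnmt3l than the tagged line in DMSO. That is 3 of 8 genes higher and 3 lower, against 25.0% and 41.0% of 17458 genes. Tet3 had between 2.59 and 2.72 TPM in the 3 parental libraries, far below the range of 7.75 to 8.22 TPM in tagged cells, which is -1.42 ± 0.0483 on the log2 scale by limma (adjusted p = 1.79e-08). Tet2 had 47.4, 49.8 and 47.8 TPM (0.75 higher on the log2 scale) and Tet1 153, 155 and 154 TPM (0.43 higher). Uhrf1 was 0.33 higher, and Dnmt3b differed by -0.73 and Dnmt3l by -0.49. Dnmt3a differed by 0.09 and Dnmt1 by -0.03, which centring turned to 0.17 and called. ESC markers summed to between 6569 and 6682 TPM and feeder markers to between 106 and 109 TPM in parental cells, a part that was not tested. Trim28 RNA had means of 1398 TPM in parental cells, 624 TPM in the tagged line in DMSO and 287 TPM in NPCs. Its part was not tested either.

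**Figure D5:**
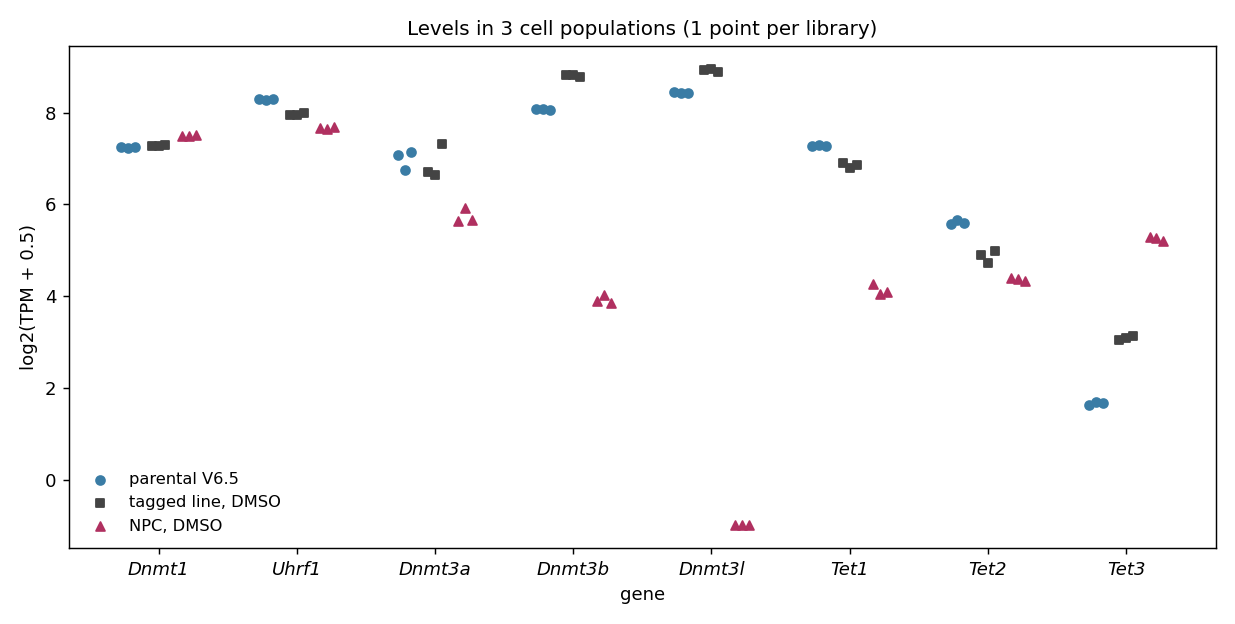
Level of each gene (y axis, log2(TPM + 0.5), a log scale) in parental V6.5 mESCs, the tagged line in DMSO and NPCs in DMSO, 1 point per library and 3 libraries per group. Dnmt3l was listed at 0 TPM in the 3 NPC libraries, and Tet3 was lowest in parental cells and highest in NPCs without overlap between groups.

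NPCs had 2 genes higher and 6 lower than the tagged line, against 49.5% and 39.5%. Dnmt3l was listed at 0 TPM in all 3 NPC libraries, against 470 to 496 TPM in the tagged line, and Aire was listed at 0 too. Dnmt3b had 14.3, 15.6 and 13.9 TPM, a log2 difference of -4.89 ± 0.0389 (limma adjusted p = 2.13e-13). Tet3 had 38.7, 37.9 and 36.4 TPM, higher by 2.17 ± 0.0483 (adjusted p = 8.46e-11). Tet1 differed by -2.71, Dnmt3a by -1.15, Tet2 by -0.50 and Uhrf1 by -0.29. Dnmt1 was higher by 0.23, a difference that centring turned to -0.17, with both values past the test. Tet3 made up 50.3% ± 0.690 of the TET sum in NPCs and 1.30% ± 0.0239 in parental cells. The 10 neural progenitor markers were all higher in NPCs, with a sum from 3863 to 3940 TPM, while 7 of 10 ESC markers were below 1 TPM. In the tagged line 5 of the neural markers were below 1 TPM. The filter could pass them through the NPC libraries, which favoured that outcome. Centring moved the split of all genes to 6408 higher and 9077 lower in NPCs, in place of 8639 and 6898, and to 7292 and 4698 in parental cells, in place of 4364 and 7161.

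The wider methylation pathway was described by 36 genes in 5 lists, chosen with earlier results of these data known. At 96 h 13 of 35 tested were higher and 19 lower, against 42.9% and 37.4% of all genes, with a median change of -0.24 beside 0.05 over all genes tested. Of 7 readers of methylated DNA, 6 were higher and 1 lower (median 1.31), including Zbtb4 at 2.24. Of 6 partners of maintenance methylation, 1 was higher and 5 lower (median -1.12), including the remodeller gene Hells at -2.22. Of 6 regulators of TET and DNMT proteins, 1 was higher and 4 lower, with Prdm14, a repressor of methyltransferase genes in mESCs, at -3.03 and Zfp57, which brings TRIM28 to imprinted loci, at -2.47. Of 10 genes of base excision repair and demethylation, 3 were higher and 5 lower, with Gadd45g, a stress response gene, at 3.36. Of 6 genes of methyl donor supply and related metabolism, 2 were higher and 4 lower.

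At 24 h 19 of 35 pathway genes were higher and 11 lower, against 42.9% and 25.0% of all genes (median 0.16, beside 0.13 over all genes). The DNA glycosylase genes Neil2 and Neil3 changed by 2.17 and 1.43, Ogt, whose product binds TET proteins, by 1.39 and Gadd45a by -1.35. Earlier, 4 were higher and 6 lower after 2 h, against 8.25% and 7.02%, and 10 and 7 after 6 h, against 18.4% and 15.5%. In TT-SLAM-seq 29 were tested, with 1 higher and 4 lower after 2 h, against 1.58% and 1.97%. After 6 h 1 was higher and 0 lower, against 7.82% and 1.27%. At 24 h 15 were higher and 5 lower, against 32.3% and 5.59%, where Cxxc5, a CXXC protein gene, was higher by 1.01. In the shERV line 11 of 34 were higher and 10 lower in dTAG-13, against 41.2% and 12.8%, where Prdm14 changed by -1.83. In Dox + dTAG-13 compared with dTAG-13 12 were higher and 8 lower, against 17.5% and 29.3%, where it changed by 1.91. Between lines, Neil2 (-2.42), Neil3 (-1.40), Ogt (-1.39), Apobec1 (-1.17) and Prdm14 (-1.12) had a lower change in the shERV line. In NPCs 18 of 35 were higher and 15 lower, against 49.5% and 39.5%, with Dppa3 at -7.24 and Cxxc4 at 5.18. In parental cells 9 were higher and 17 lower, against 25.0% and 41.0%.

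Peaks of ChIP-seq, called by the authors per library, asked whether chromatin at the promoters of the 8 genes changed by 24 h. A promoter was 1 kb on each side of the annotated gene start. H3K27Ac, a mark of active promoters and enhancers, was present in all 3 DMSO libraries at 3 of 8 promoters (Dnmt3b, Uhrf1 and Tet2) and in all 3 libraries after dTAG-13 at 2 (Uhrf1 and Tet2), beside 60.2% and 38.6% of the 17922 genes. RNAPII peaks were present in both DMSO libraries at the same 3 promoters and in both dTAG-13 libraries at Uhrf1, beside 52.5% and 26.8%. MED23, a Mediator subunit, had peaks at 4 promoters (Dnmt3a, Dnmt3b, Uhrf1 and Tet2) in DMSO and at Uhrf1 after dTAG-13, beside 72.2% and 20.8%. H3K9me3 peaks were present in every library at 0 of 8 promoters in either condition, beside 2.81% and 0.379%.

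The number of peaks fell in whole libraries, from 19853 and 19194 to 8182 and 7689 for RNAPII and from 63045 and 58925 to 15335 and 14551 for MED23. H3K27Ac had 88050, 117475 and 96407 peaks in DMSO against 30259, 117348 and 45662 after dTAG-13, and H3K9me3 had 118318, 126470 and 104579 against 11474, 105690 and 147611. The part of these totals in the peaks at the 8 genes was not tested. At Uhrf1 the highest MED23 fold enrichment read 14.7 and 7.49 in DMSO, against 2.36 and 3.39 with dTAG-13, and that of RNAPII 7.65 and 9.20 against 4.37 and 4.33. Its RNA did not pass the test at 24 h.

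Annotated gene starts lie away from the RefSeq starts for several of these genes, so the count was repeated around the RefSeq starts, a choice made after seeing the data. H3K27Ac then marked 7 of 8 genes in DMSO and 6 after dTAG-13, beside 73.9% and 48.7% of 11299 genes. RNAPII marked 7 and 1, beside 65.7% and 33.6%, and MED23 marked 8 and 2, beside 88.1% and 25.5%. A gene counted when a peak lay at any of its starts, so genes with more starts had more chances. The 8 genes have 15 starts, beside 32851 promoters of 27025 gene symbols in all. The MED23 fold enrichment was 29.9 and 26.1 at Dnmt3a, 18.3 and 18.5 at Dnmt3l and 14.8 and 17.0 at Tet1 in DMSO. After dTAG-13 Tet1 had 3.75 and 4.02 there, and no peak was listed within 1 kb of the RefSeq starts of Dnmt3a or Dnmt3l. MED23 peaks remained elsewhere in these genes, counted from 5 kb before the gene start to the gene end. Their highest fold enrichment was 6.94 and 7.74 at Dnmt3a, 10.5 and 7.70 at Dnmt3l and 5.46 and 5.22 at Tet1. Tet1 also held the most H3K27Ac peaks across its body, with 46, 66 and 63 peaks in DMSO, covering 42203, 47177 and 36532 bp, against 23, 66 and 34 with dTAG-13. A H3K9me3 peak of low fold enrichment (2.93, 2.03 and 2.21) lay in the Tet1 body in each DMSO library and in no dTAG-13 library, an item chosen after its values were seen. Whether these peaks share a position was not tested. How many of all genes hold such peaks was not counted, so the item is not shown to be particular to Tet1.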

How the data were processed

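RNA-seq tables were deposited by the authors as TPM with coverage per gene, a signal column used here only for relative depth, from StringTie 2.0.6 after STAR 2.7.5a on mm10. TT-SLAM-seq was deposited as FPKM of reads with T-to-C conversion, counted with htseq after SLAM-DUNK. Peaks were deposited per library with a fold enrichment (ratio) and a -log10 q, and MACS2 is named in the submitters' processing notes. The depth of RNA-seq was known only relatively. In TT-SLAM-seq 98.5% to 99.4% of low values were whole reads within 0.1, and the recovered reads entered a voom fit chosen after seeing the data.

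Samples were grouped by their labels. Between 6 and 13 duplicated gene identifiers per table were summed. limma 3.58.1 in R 4.3.3 was fitted to log2(value + 0.5) with a mean trend and Benjamini-Hochberg adjustment over all genes with at least 1 TPM (0.5 FPKM) in 3 libraries, and calls are at an adjusted p of 0.05. The 13 comparisons used 5 fits (12 TT-SLAM-seq, 15 time course, 9 shERV, 9 cell type and 12 interaction libraries). The code was tested on simulated data. Alternatives were other pseudocounts, no filter, centring on the median gene, a replicate block, only the groups compared and leaving out each library, and for peaks other windows, overlaps and thresholds. A promoter was 1 kb on each side of a gene start.

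All 8 genes are named, and pathway genes only among the 5 with the largest change past 2-fold and the test in a comparison. Genes nearest in course were taken for the members with the largest rise and fall at 96 h. The members and lists were chosen with earlier results of these data known. Single-cell, Hi-C and input libraries were not used here.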

Additional observations from a re-analysis of the deposited data

Results flagged for a closer look

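For 4 genes the 24 h effect of dTAG-13 in the shERV line differed from that of the time course by the limma interaction. Among all 17653 genes tested, 26.2% had a higher and 25.2% a lower effect, so the number is not particular to these genes. The difference (shERV minus time course, log2) was 0.32 for Dnmt3b (adjusted p = 0.00105) and 0.63 for Dnmt3l (adjusted p = 4.45e-05), both of which fell in each line and fell less in the shERV line. It was -0.50 for Tet1 (adjusted p = 0.000263) and -1.17 for Tet2 (adjusted p = 2.21e-05), a lower change in the shERV line for both, while Tet2 had not passed the test at 24 h of the time course. In each of the 4 genes the dTAG-13 libraries of the shERV line were below its DMSO libraries in 3 of 3. The lines also differed in library kit and feeders, which cannot be told apart from the difference.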

How the results depend on the processing

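Of 1319 values of the 8 genes over all alternatives, 1233 kept direction and side of the threshold, 24 lost a call, 29 gained one and 33 changed sign, and the cause was not tested. Depth limits the TT-SLAM-seq values, with as few as 67 reads for Dnmt3l. Without a filter, Tet1 at 2 h of TT-SLAM-seq was no longer called (0 genes of the 8 higher, adjusted p = 0.0605), and 7147 genes were higher at 24 h. Dnmt3b at 2 h of RNA-seq also lost its call without a filter (limma adjusted p = 0.0552).

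Under centring, TT-SLAM-seq had 459 genes higher at 2 h (2 of the 8, Tet3 gained), 341 lower at 6 h, and at 24 h a split of 1858 to 2249 (1 and 3 of the 8). Values that changed sign there were Dnmt3a at 2 h (0.0195), Dnmt1 (-0.0496) and Uhrf1 (-0.0458) at 6 h and Dnmt1 at 24 h (-0.19). In RNA-seq the splits were 2023 to 4710 at 6 h (0 of the 8 higher) and 4643 to 7900 at 24 h (0 and 7 of the 8). In the shERV line 4189 were higher and 4789 lower (7 of the 8 lower, Dnmt1 at -0.14), and 4570 higher in Dox + dTAG-13. Parental cells had 7292 higher and 4698 lower (Dnmt1 at 0.17), NPCs 1 of the 8 higher (Dnmt1 at -0.17), and the interaction for Uhrf1 was 0.0716.

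With only the groups compared, TT-SLAM-seq had 7 genes higher and 2 lower at 2 h (0 of the 8 higher, and Dnmt3a filtered out, without a value), a split of 458 to 28 at 6 h, and 2 of the 8 lower at 24 h with Dnmt3b called. In RNA-seq 0 of the 8 were higher at 6 h. The voom fit had 925 genes higher and 469 lower at 2 h (4 and 1 of the 8, Dnmt3a at 0.000695), 657 lower at 6 h (4 of the 8 higher, Dnmt1 at -0.0837 and Uhrf1 at -0.0813), and a 24 h split of 2429 to 2374 (5 of the 8 lower, Dnmt1 at -0.22).

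Same-numbered libraries had deviations correlated above 0.1 in 3 of 18 pairs of TT-SLAM-seq and 1 of 30 of the time course. In the shERV line it was 0 of 9 and in the cell types 1 of 9. The numbers were therefore not used to pair the samples in the main fits, though such correlations cannot exclude pairing. With a replicate block Dnmt3a was called in the shERV line in dTAG-13 (-0.42, adjusted p = 0.008) and in Dox + dTAG-13 (0.35, adjusted p = 0.0246), and no other call of the 8 genes changed. The block gave 201 genes higher and 198 lower at 2 h of TT-SLAM-seq.

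Leaving out each library in turn gave 34 to 506 genes higher and 25 to 269 lower at 2 h of TT-SLAM-seq (0 to 1 of the 8 higher), lowest without 2 h replicate 1 and DMSO replicate 2. The 6 h counts were 163 to 881 higher and 17 to 289 lower, lowest without 6 h replicate 1, and those of 24 h 480 to 904 lower (1 to 2 of the 8 higher), lowest without DMSO replicate 1. RNA-seq at 2 h had 968 to 1439 genes higher and 685 to 1021 lower, lowest without DMSO replicates 2 and 1, and 2 to 3 of the 8 lower. Signs changed for Dnmt1 (-0.162 to 0.0283), Dnmt3a (-0.0625 to 0.0172) and Dnmt3b (-0.0679 to 0.118) at 2 h, Dnmt1 (-0.0396 to 0.115) and Uhrf1 (-0.0835 to 0.180) at 6 h, and Dnmt1 (-0.0401 to 0.139) and Tet1 (-0.0884 to 0.0455) at 24 h of TT-SLAM-seq. They also changed for Dnmt3a at 2 h of RNA-seq (-0.0912 to 0.488), Dnmt1 in the shERV line (-0.0103 to 0.0506), Dnmt3a in parental cells (-0.0351 to 0.307) and the interaction of Tet3 (-0.0274 to 0.0591).

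H3K27Ac peaks at the 8 promoters counted in DMSO were 1 at a -log10 q of at least 10, 1 in the top 10000 peaks, 5 in a 2 kb window and 7 at RefSeq starts. After dTAG-13 they were 1, 0 in the top 10000, 1 with an overlap of at least 200 bp, and 6 at RefSeq starts. RNAPII gave 1, 1 and 7 in DMSO (q, top 10000, RefSeq starts) and 0 after dTAG-13 by q. MED23 gave 0 in DMSO in the top 10000 and 8 at RefSeq starts, and after dTAG-13 0 by q, by the top 10000 and by overlap, and 2 at RefSeq starts. The RefSeq starts and voom were added after seeing the data.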
